A study of Mus musculus with 19 samples.

Results

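The *Zscan4* copies are the 6 genes listed under the symbols *Zscan4a* to *Zscan4f* among the 25891 genes of a table of RNA levels in mouse MII oocytes and 2cell embryos. They were picked by symbol alone, and each symbol matched 1 row. The table holds 19 libraries, named here by group and letter: 5 of CPEB3+/- MII oocytes (A to E), 5 of CPEB3-/- MII oocytes (A to E), 5 of 2cell embryos from CPEB3+/- oocytes (A to E) and 4 of 2cell embryos from CPEB3-/- oocytes (A to D). For embryos the genotype is thus that of the oocyte, not of the embryo itself, and they are called CPEB3+/- and CPEB3-/- 2cell embryos in that sense only. The values are FPKM, fragments per kilobase of exon scaled to the mapped fragments of each library, so levels of genes of unequal length can be set side by side. All RNA came from BL6 females 6 to 10 weeks old, superovulated with 5 IU of PMSG and, 48 h later, 5 IU of hCG. Oocytes at metaphase II were ovulated, whereas the 2cell embryos came from zygotes cultured in M16 medium and were taken 37 h after hCG. CPEB3, a protein that binds mRNA and regulates its translation and poly(A) tail, was removed by a floxed allele and Cre under the *Zp3* promoter, which acts in the growing oocyte, so protein made earlier can persist. The labels call the controls Het. The study describes CPEB3-/- oocytes as LoxP/LoxP with *Zp3*-Cre, and mated such females with wild-type males to follow development. Neither the males behind the sequenced embryos nor the embryos' own genotype are given in the sources used here. Per the methods each library pools 5 cells. Nothing says that the libraries came from separate females, so p values measure the spread between libraries.

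*Zscan4* genes encode proteins with a SCAN domain and zinc fingers. In the mouse they are a textbook marker of the 2cell stage, switched on in a burst when the embryonic genome is activated, and they reappear in rare cells of embryonic stem cell cultures. ZSCAN4 is known for telomere lengthening by recombination and for genome stability in those cells, and *Zscan4d* was described as the main copy of 2cell embryos. The study itself followed *Zscan4* up from these libraries, so the differences below are not independent evidence of it.

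*Cpeb3*, the deleted gene (chromosome 19 of GRCm38, 37021291 to 37208602), was examined first. Among MII oocytes its level averaged 0.0755 ± 0.0240 FPKM (SD, n = 5) under the label CPEB3+/- and 0.162 ± 0.0325 FPKM (SD, n = 5) under CPEB3-/-, with no overlap (exact permutation test of FPKM, two-sided, p = 0.00794, as low as this design can go). The 2cell averages were 0.0303 ± 0.0149 FPKM (n = 5) and 0.0554 ± 0.0129 FPKM (n = 4) in that order (exact permutation test, p = 0.0317). The RNA of the deleted gene was therefore higher, not lower, under the label CPEB3-/-. By limma on the log2(FPKM + 0.1) scale the MII difference was 0.52 (adjusted p = 0.0151), a change under 1.5-fold. In 2cell embryos *Cpeb3* lay at 0.0633 FPKM or less, too low to be tested by limma. Reads of the deleted exons cannot be picked out of a value for the entire gene, so it does not check the labels. The study examined *Cpeb3* RNA and CPEB3 protein in oocytes by other assays, which were not analysed here. Every direction given below is therefore one between labels. The estimated depth ran from 17.2 to 23.6 M fragments (M, mega). The 8 oocyte markers, among which *Gdf9* and *Ooep* had the highest means in MII oocytes, summed to 839 to 1128 FPKM (median 1047) in CPEB3+/- and 807 to 901 FPKM (median 843) in CPEB3-/- MII libraries, and to 98.8 to 159 FPKM (median 107) and 127 to 156 FPKM (median 146) in 2cell libraries. In MII oocytes 1 of the 8 was called lower (an adjusted p under 0.05 and over 1.5-fold), beside 7.63% of all genes tested: *Mos*, the kinase that holds the oocyte at metaphase II, fell from 214 ± 47.8 to 67.5 ± 12.3 FPKM (log2 difference -1.77, adjusted p = 0.000151, limma). In 2cell embryos 1 of the 8 was called higher, beside 7.78% of all genes tested: *Ooep*, a gene of the subcortical maternal complex, rose from 29.5 ± 3.10 to 56.9 ± 3.63 FPKM (0.86, adjusted p = 0.00205, limma). *Gdf9* passed the adjusted p there with a change under 1.5-fold (0.51, adjusted p = 0.0170, limma). The 2cell difference minus the MII difference was called above 0 for 3 of the 8 (*Gdf9*, *Mos* and *Ooep*, limma), beside 3% of all genes tested. The part of these markers in the results below was not tested. Of the 8 cumulus and granulosa cell markers 5 were in the table, and they summed to at most 0.542 FPKM in any library. Only *Tnfaip6* of these was tested in 2cell embryos, where it was called lower (-1.03, adjusted p = 0.0134, limma), beside 10.5% of all genes tested. It had 0.217 to 0.427 FPKM in CPEB3+/- and 0.0372 to 0.133 FPKM in CPEB3-/- libraries. Genes needed 0.1 FPKM in 4 libraries to be tested, which its CPEB3+/- values reached alone, and this favours a call.

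The copies lie side by side on chromosome 7 of GRCm38, in the order of their letters, and each has 4 exons in GENCODE vM21. *Zscan4a* (10794242 to 10799057, minus strand) is annotated as an unprocessed pseudogene, and the other 5 as protein coding. *Zscan4b* (10900740 to 10905050), *Zscan4d* (11161374 to 11166159) and *Zscan4e* (11306378 to 11310682) lie on the minus strand, and *Zscan4c* (11005745 to 11010547) and *Zscan4f* (11397915 to 11402318) on the plus strand. *Zscan4-ps1*, *Zscan4-ps2* and *Zscan4-ps3* are 3 further loci of the family within or just beyond the same stretch, which this annotation calls protein coding although their symbols mark them as pseudogenes. They are not members and are described further on.

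The copies are nearly the same sequence, which decides how far a level can be given to a single copy. The transcripts of *Zscan4b* and *Zscan4e* were 99.7% identical with 5 mismatches, and those of *Zscan4c* and *Zscan4f* 99.5% identical with 9 mismatches. *Zscan4d* shared between 96.6% and 97.8% with the other 5 copies. To show what separates them, the stretch of 30 bases of the last exon in which the copies differ most is given below. Capitals mark the bases that differ from *Zscan4d*, and the sequences are from GENCODE vM21 transcripts on GRCm38.
Zscan4a (chr7:10795419-10795448, minus strand): atagTGgtgataatattcccaggaaaaaga
Zscan4b (chr7:10901417-10901446, minus strand): atagTGgtgataatattcccaggaaCaaga
Zscan4c (chr7:11009344-11009373, plus strand): atagTGgtgataatattcccaggaaCaagT
Zscan4d (chr7:11162544-11162573, minus strand): atagaagtgataatattcccaggaaaaaga
Zscan4e (chr7:11307046-11307075, minus strand): ataATGgtgataatattcccaggaaCaaga
Zscan4f (chr7:11401537-11401566, plus strand): atagTGgtgataatattcccaggaaCaagT
Even here, *Zscan4c* and *Zscan4f* read the same. Over the whole transcripts, 87.0% of the windows of 150 bases (the read length) of *Zscan4d* occurred in no other annotated transcript, against 74.9% for *Zscan4a*, 39.0% for *Zscan4c*, 31.6% for *Zscan4b*, 22.6% for *Zscan4e* and 13.8% for *Zscan4f*. Reads of *Zscan4d* can thus mostly be told from those of the other copies, whereas reads of *Zscan4b* and *Zscan4e*, and of *Zscan4c*, *Zscan4f* and *Zscan4-ps2*, can be split among copies. The sources used here do not state how such reads were shared out.

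**Figure D1:**
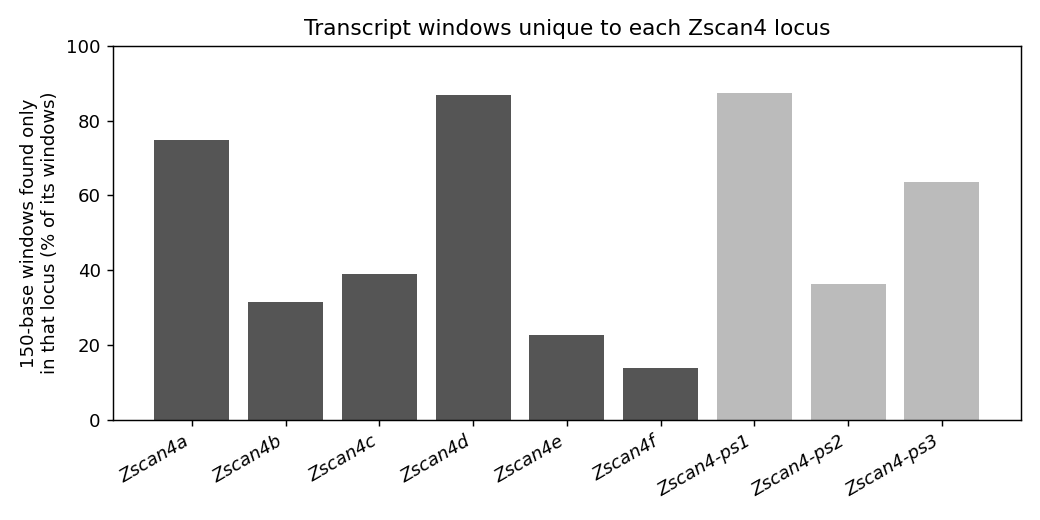
Share of 150-base transcript windows (vertical axis, %) that occur in no other annotated transcript, for the 6 Zscan4 copies (dark bars) and the 3 further Zscan4 loci (light bars). Zscan4d at 87.0% and Zscan4-ps1 at 87.4% are the most distinct, and Zscan4f at 13.8% the least.

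The ends of the copies differ in the annotation as well. Upstream of the start, the promoters of *Zscan4b*, *Zscan4c*, *Zscan4d* and *Zscan4f* in RefSeq (GRCm38.p6) share a stretch around TATAAA, in capitals, which is shown because the copies rise together between the stages. Promoters of *Zscan4a* and *Zscan4e* were not used here.
Zscan4b (chr7:10905064-10905093, minus strand): gaagccagaggcTATAAAagggaaccaatc
Zscan4c (chr7:11005679-11005708, plus strand): gaagccaggcgcTATAAAagggaaccaatc
Zscan4d (chr7:11166196-11166225, minus strand): gaagccaggggcTATAAAagggaaccaatc
Zscan4f (chr7:11397872-11397901, plus strand): gaagccaggcgcTATAAAagggaaccaatc
TATAAA was searched on the strand of the gene. The matches shown begin 31, 54, 65 and 31 bases before the start, in that order, and matches far upstream in the copies were passed over. Of 32851 promoters, 8.32% hold TATAAA from 250 bases before to 50 bases after the start. In the 50 bases before the start 2.63% hold it. At the other end, the transcripts of *Zscan4a*, *Zscan4c* and *Zscan4d* close with runs of AATAAA, the signal for cleavage and polyadenylation. Their last 30 bases follow, with the overlapping matches in capitals.
Zscan4a (chr7:10794242-10794271, minus strand): gaatAATAAATAAATAAAtaatcaacaatt
Zscan4c (chr7:11010518-11010547, plus strand): gaatAATAAATAAATAAAtaatcaacaatt
Zscan4d (chr7:11161374-11161403, minus strand): gaatAATAAATAAAaaaataatcaacaatt
Of 7692 coding transcripts of genes tested in MII oocytes, 63.8% hold AATAAA in their last 40 bases. The annotated transcripts of *Zscan4b*, *Zscan4e* and *Zscan4f* stop 57, 48 and 129 bases after the stop codon, with no AATAAA in their last 40 bases, whereas those of *Zscan4c* and *Zscan4d* run on for 551 and 547 bases. TTTTAT, the core of the cytoplasmic polyadenylation element that CPEB proteins are known for, occurs 3 times in the 3′UTR of *Zscan4c* and of *Zscan4d* and in none of the shorter 3 (searched on the strand of the gene). It is not particular to them: *Zscan4-ps1*, *Zscan4-ps2* and *Zscan4-ps3* hold it 1, 3 and 3 times. In CPEB3-/- MII oocytes these loci averaged 14.8, 0.122 and 0.0773 FPKM, and *Zscan4f*, with 0 matches, 0.969 FPKM. A part of the element in these levels was not tested. The last TTTTAT of *Zscan4c* and of *Zscan4d* is shown in capitals, since the element bears on the protein that was removed.
Zscan4c (chr7:11010319-11010348, plus strand): tctgatctccacTTTTATtctctacagtgt
Zscan4d (chr7:11161573-11161602, minus strand): tctgatctccacTTTTATtctctacagtgg
Of the same 7692 transcripts, 40.5% hold TTTTAT in their last 550 bases. A match is a description of the letters and not a site.

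In MII oocytes, *Zscan4d*, *Zscan4c* and *Zscan4f* were higher in the libraries labelled CPEB3-/- than in those labelled CPEB3+/-, and *Zscan4a*, *Zscan4b* and *Zscan4e* were near the limit of detection in both. *Zscan4d* had 1.19, 0.883, 1.51, 0.825 and 1.35 FPKM in CPEB3+/- libraries A to E, and 7.07, 10.4, 9.92, 14.3 and 7.80 FPKM in CPEB3-/- libraries A to E. The groups did not overlap: each library labelled CPEB3-/- exceeded each control. The means were 1.15 ± 0.294 and 9.88 ± 2.81 FPKM (SD, n = 5 each), a ratio of 8.59. On the log2(FPKM + 0.1) scale the difference was 2.87 (standard error 0.241, adjusted p = 0.000107, limma, adjusted after Benjamini and Hochberg over 10515 genes). In pools of 5 cells, more cells with *Zscan4* RNA and more of it per cell cannot be told apart. Per the methods mRNA was captured and amplified before sequencing. Whether capture differed with the poly(A) tail, which CPEB3 regulates, was not tested. In each genotype the estimated fragments behind the *Zscan4d* values were 38.5 to 80.8 and 365 to 678 per library.

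*Zscan4c* had 0.418, 0.755, 0.470, 0.540 and 0.535 FPKM in CPEB3+/- libraries A to E, against 1.61, 3.10, 4.72, 5.11 and 2.30 FPKM in CPEB3-/- libraries A to E. Its groups did not overlap either, and libraries C and D were the highest of those labelled CPEB3-/-. The ratio of means was 6.19, and the log2 difference 2.22 (standard error 0.296, adjusted p = 0.00104, limma). *Zscan4f* had 0.178, 0.202, 0.167, 0.119 and 0.488 FPKM in CPEB3+/- and 0.666, 0.726, 1.05, 1.67 and 0.734 FPKM in CPEB3-/- libraries A to E. Library E was the highest control and still lay under every library labelled CPEB3-/-. Its ratio of means was 4.20, with a log2 difference of 1.62 (standard error 0.298, adjusted p = 0.00557, limma). Low values shrink on this scale, and with a pseudocount of 1 the difference of *Zscan4f* was 0.63, still called. For each of *Zscan4c*, *Zscan4d* and *Zscan4f* the two-sided exact permutation test on FPKM gave p = 0.00794, the smallest that 252 splits allow.

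These 3 copies passed the filter on low values (at least 0.1 FPKM in 5 libraries) in all 10 MII libraries, and all 3 were called higher, meaning that the adjusted p was under 0.05 and the change over 1.5-fold. Among all genes tested, 5.15% were called higher and 8.71% had groups that did not overlap with CPEB3-/- above. The 3 copies that failed the filter were not tested by limma. *Zscan4a* lay at 0.0498 to 0.129 FPKM in CPEB3+/- and 0.0546 to 0.127 FPKM in CPEB3-/- libraries, which overlapped fully (exact permutation test, p = 0.825). At the median depth 3 fragments on *Zscan4a* are worth 0.0668 FPKM, so these values rest on about 2.67 to 6.04 fragments each. *Zscan4e* lay at no more than 0.123 FPKM in CPEB3+/- and at 0.0265 to 0.161 FPKM in CPEB3-/- libraries (exact permutation test, p = 0.365). *Zscan4b* was listed at 0.0331 FPKM or less in all 10, and at exactly 0 in 3 of them (exact permutation test, p = 0.603). With no filter, the log2 difference of *Zscan4a* was -0.02 (standard error 0.143, adjusted p = 0.963, limma), so no rise of the size seen for *Zscan4d* was present in it. Small differences in these 3 copies were not detectable at this depth.

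**Figure D2:**
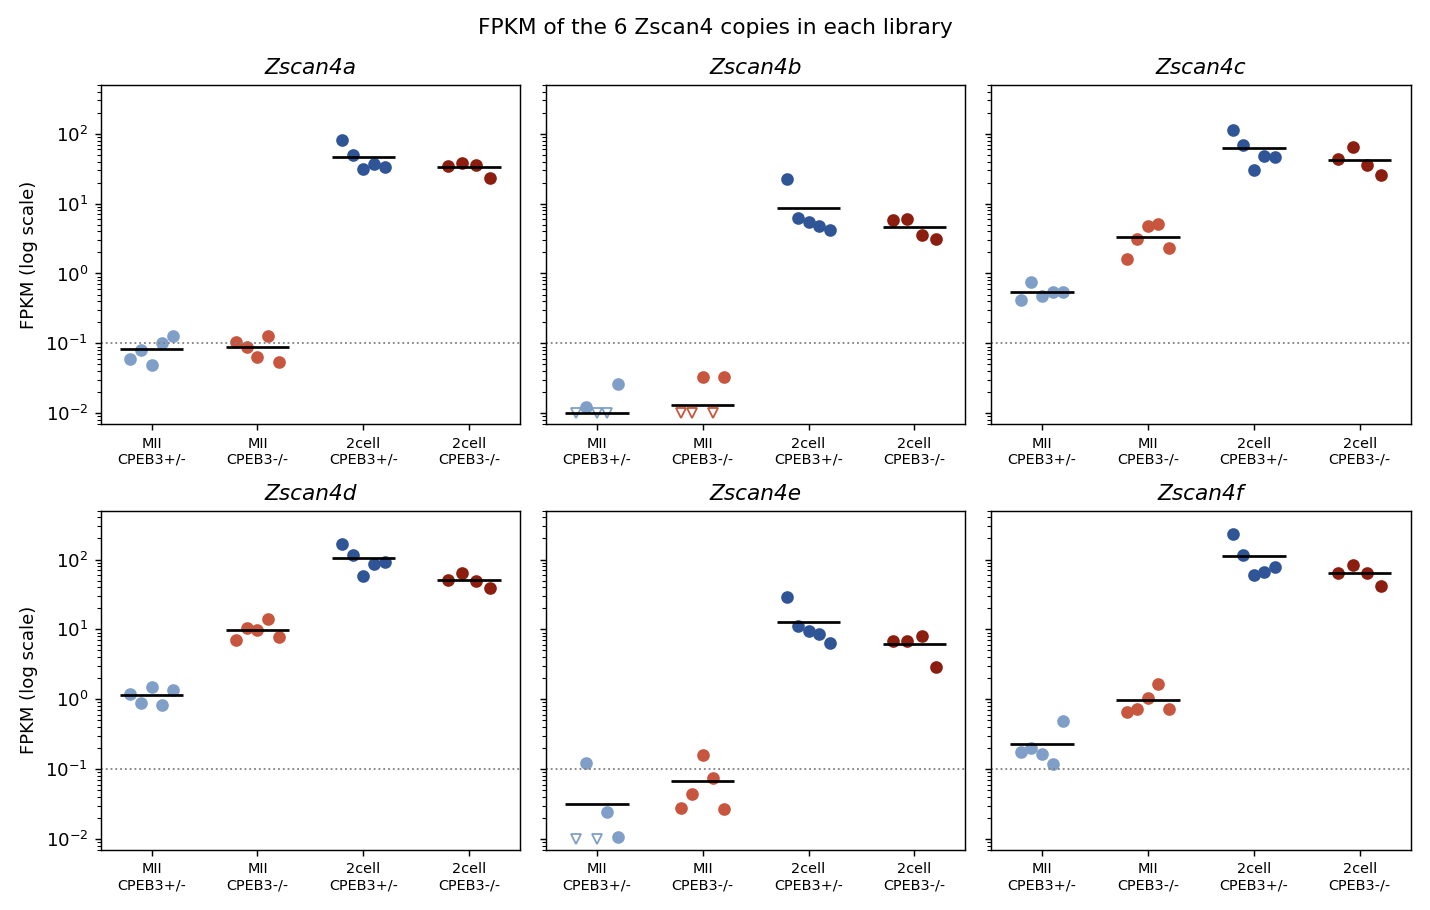
FPKM (log axis) of each Zscan4 copy in every library, by stage and labelled genotype, with the group mean as a bar and the filter of 0.1 FPKM as a dotted line. Open triangles are values under 0.01 FPKM drawn at 0.01, as is a mean below it. Zscan4c, Zscan4d and Zscan4f separate by genotype in MII oocytes, no copy does so fully in 2cell embryos, and CPEB3+/- 2cell library A is the highest point of all 6 panels.

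At the 2cell stage all 6 copies were high in both genotypes. The means of the libraries labelled CPEB3-/- lay under those labelled CPEB3+/- for each copy, but only *Zscan4d* was called lower, and no copy had groups that did not overlap. *Zscan4d* had 169, 117, 58.8, 85.2 and 91.8 FPKM in CPEB3+/- libraries A to E, and 50.3, 64.7, 48.9 and 38.9 FPKM in CPEB3-/- libraries A to D. Of the 4 libraries labelled CPEB3-/-, 3 lay under all controls, and library B lay above control C. The means were 104 ± 41.5 (SD, n = 5) and 50.7 ± 10.6 FPKM (SD, n = 4), a ratio of 0.486. The log2 difference was -1.07 (standard error 0.303, adjusted p = 0.0343, limma over 14051 genes), and the two-sided exact permutation test on FPKM gave p = 0.0317 where 126 splits allow 0.00794. Among all genes tested, 10.5% were called lower and 9.56% had groups that did not overlap with CPEB3-/- below, so 1 of 6 copies called and 0 of 6 without overlap are near those shares.

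The call of *Zscan4d* was not firm. It was lost in 6 of the 9 fits that left out a library, with adjusted p from 0.0512 (without CPEB3+/- library D) to 0.0903 (without CPEB3-/- library D). It was kept without the highest control, library A (log2 difference -0.85, adjusted p = 0.0407, limma), and without library A and the highest library labelled CPEB3-/-, B, together (-0.99, adjusted p = 0.0365, an alternative chosen after seeing the data). Scaled to the sum of FPKM the difference was -0.68 (adjusted p = 0.103, limma) while the median of all genes moved from -0.04 to 0.26 on the log2 scale. The difference was below 0 in all 9 fits without a library and in the 12 other settings.

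**Figure D3:**
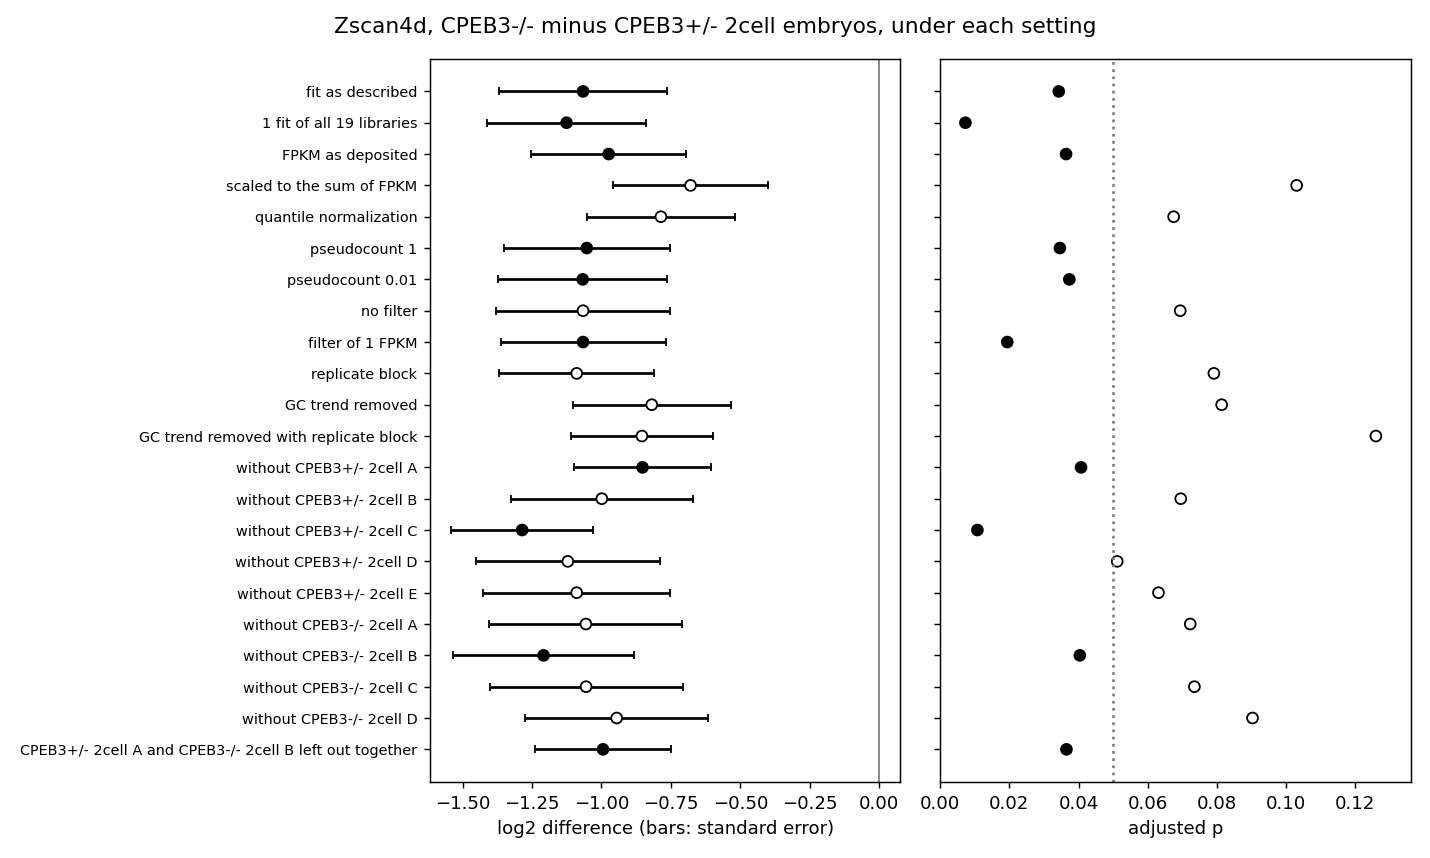
Zscan4d in 2cell embryos, CPEB3-/- minus CPEB3+/-: log2 difference with its standard error (left) and adjusted p (right, threshold of 0.05 dotted) in the fit as described and in each alternative, limma. Filled points are called. The differences lie between -1.29 and -0.68, and the adjusted p falls on both sides of the threshold.

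*Zscan4f* was the highest copy by mean in both genotypes, at 234, 116, 59.4, 66.2 and 78.7 FPKM in CPEB3+/- and 63.6, 82.7, 64.0 and 42.4 FPKM in CPEB3-/- 2cell libraries. Its groups overlapped, and only CPEB3-/- library D lay under all controls. The log2 difference of -0.74 (95% interval -1.65 to 0.16, adjusted p = 0.224, limma) did not pass the test. *Zscan4c* had 115, 68.6, 30.7, 48.7 and 46.0 FPKM in CPEB3+/- and 43.1, 64.4, 35.7 and 25.3 FPKM in CPEB3-/- libraries, with a log2 difference of -0.58 (interval -1.48 to 0.32, adjusted p = 0.339, limma). *Zscan4a*, the annotated pseudogene, had 82.7, 49.3, 30.9, 37.0 and 33.8 FPKM in CPEB3+/- and 34.5, 38.6, 35.3 and 23.4 FPKM in CPEB3-/- libraries. Its log2 difference was -0.52 (interval -1.21 to 0.16, adjusted p = 0.258, limma). For all 3, control library A was the highest of its group and CPEB3-/- library D the lowest.

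*Zscan4e* and *Zscan4b*, the near-identical pair, were the lowest copies of 2cell embryos. *Zscan4e* had 28.9, 11.1, 9.33, 8.53 and 6.30 FPKM in CPEB3+/- and 6.78, 6.87, 7.98 and 2.94 FPKM in CPEB3-/- libraries, a log2 difference of -1.02 (interval -2.02 to -0.01, adjusted p = 0.142, limma). *Zscan4b* had 22.3, 6.27, 5.43, 4.85 and 4.23 FPKM in CPEB3+/- and 5.92, 5.99, 3.60 and 3.14 FPKM in CPEB3-/- libraries, a log2 difference of -0.71 (interval -1.77 to 0.35, adjusted p = 0.325, limma). Neither was called, although *Zscan4e* was called lower when all 19 libraries shared a fit (-1.07, adjusted p = 0.0439, limma). The exact permutation tests gave p = 0.0794 for *Zscan4e*, 0.222 for *Zscan4f*, 0.270 for *Zscan4a*, and 0.302 for both *Zscan4b* and *Zscan4c*. The intervals of these 5 copies reach well below 0, so the test does not show that they were alike in both genotypes.

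**Figure D4:**
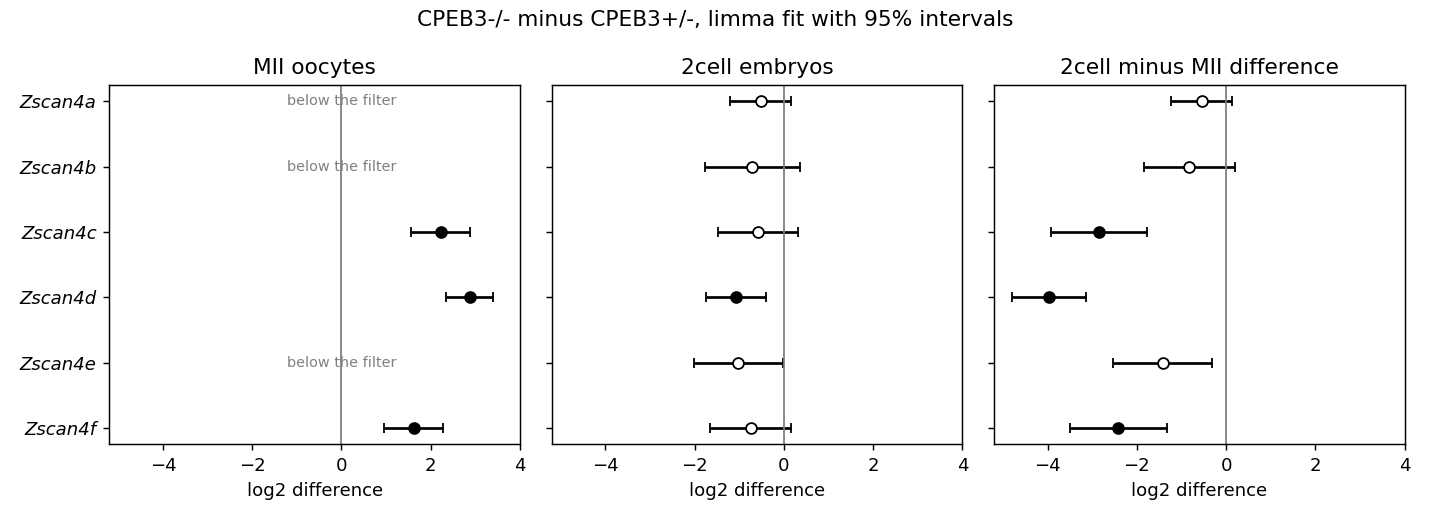
Log2 difference, CPEB3-/- minus CPEB3+/-, of each copy in MII oocytes (left) and 2cell embryos (middle), and the 2cell difference minus the MII difference (right), with 95% intervals from limma. Filled points are called. Zscan4c, Zscan4d and Zscan4f lie above 0 in MII oocytes, at 2.22, 2.87 and 1.62, all 6 copies lie below 0 in 2cell embryos, and the right panel is called for the same 3.

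The difference between genotypes changed with the stage for 3 copies. In a fit of all 19 libraries, the 2cell difference minus the MII difference was -3.97 for *Zscan4d* (standard error 0.395, adjusted p = 2.18e-05, limma over 15786 genes), -2.84 for *Zscan4c* (standard error 0.512, adjusted p = 0.00248) and -2.41 for *Zscan4f* (standard error 0.514, adjusted p = 0.00737). These calls held in the 19 fits without a library and in the 10 other settings, but their size depended on the pseudocount: with 1 in place of 0.1 they were -3.34, -2.01 and -1.43. Among all genes tested, 5.45% were called in this direction. *Zscan4b* and *Zscan4e* entered this fit through their 2cell values alone. For *Zscan4a*, *Zscan4b* and *Zscan4e* the differences were -0.55, -0.83 and -1.42 and did not pass the test (adjusted p = 0.342, 0.330 and 0.107, limma).

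From MII oocyte to 2cell embryo every copy rose in both genotypes, and no 2cell library overlapped with an MII library of its genotype for any copy. In CPEB3+/- the log2 rise was 6.20 for *Zscan4d* (standard error 0.271), 6.35 for *Zscan4c* (standard error 0.352) and 8.19 for *Zscan4f* (standard error 0.352). In CPEB3-/- it was 2.22 (standard error 0.287), 3.50 (standard error 0.373) and 5.78 (standard error 0.374) for the same copies. With a pseudocount of 1 the rises were 5.46, 5.16 and 6.30 in CPEB3+/- and 2.12, 3.15 and 4.86 in CPEB3-/-. All 6 copies were called in each genotype, where 39.6% and 38.2% of all genes tested were called higher. *Zscan4b* and *Zscan4e* passed the filter (0.1 FPKM in 4 of the 19 libraries) only through their 2cell values and had to differ. By mean FPKM the rise of *Zscan4d* was 90.6-fold in CPEB3+/- and 5.13-fold in CPEB3-/-, that of *Zscan4c* 114-fold and 12.5-fold, and that of *Zscan4f* 480.5-fold and 65.2-fold. Stage and culture cannot be told apart here, since MII oocytes were ovulated and 2cell embryos were grown from zygotes in vitro. Of the 5 blood markers listed, the alpha-globins *Hba-a1* and *Hba-a2* were in the table, and they summed to at most 0.428 FPKM in MII and to 46.2 to 146 FPKM in 2cell libraries of both genotypes. Their part in the rise was not tested.

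Among the 6 copies, the mix in MII oocytes differed from that in 2cell embryos. In all 10 MII libraries *Zscan4d* was the highest copy, *Zscan4c* the second and *Zscan4f* the third in FPKM. The share of *Zscan4d* in the summed FPKM of the 6 copies was 43.0% to 68.7% in CPEB3+/- and 62.2% to 74.6% in CPEB3-/- MII libraries, which overlap. In 2cell libraries it was 25.9% to 35.2% in CPEB3+/- and 24.6% to 28.6% in CPEB3-/-. *Zscan4f* took 5.07% to 19.2% of the sum in MII libraries and 26.4% to 35.9% in 2cell libraries. *Zscan4a* took at most 6.32% in MII and 12.7% to 18.1% in 2cell libraries.

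The order of the top copies in 2cell embryos was less firm than in oocytes. *Zscan4f* lay above *Zscan4d* in 2 of 5 libraries labelled CPEB3+/-, where the mean log2 difference between the copies was -0.02 ± 0.32 (SD), so those neighbours were not separated. In CPEB3-/- libraries *Zscan4f* lay above *Zscan4d* in 4 of 4, by 0.30 ± 0.12 (SD) on the log2 scale. *Zscan4c* lay above *Zscan4a* in 4 of 5 and 4 of 4 libraries, by 0.36 ± 0.21 and 0.30 ± 0.32, the second within its spread. *Zscan4a* lay above *Zscan4e* in all 9 libraries, by 1.98 ± 0.36 and 2.47 ± 0.35. *Zscan4e* and *Zscan4b* were separated by 0.66 ± 0.19 in CPEB3+/- but only by 0.36 ± 0.53 in CPEB3-/- libraries. These orders carry the doubt of shared reads and of the shorter annotated ends of *Zscan4b*, *Zscan4e* and *Zscan4f*.

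**Figure D5:**
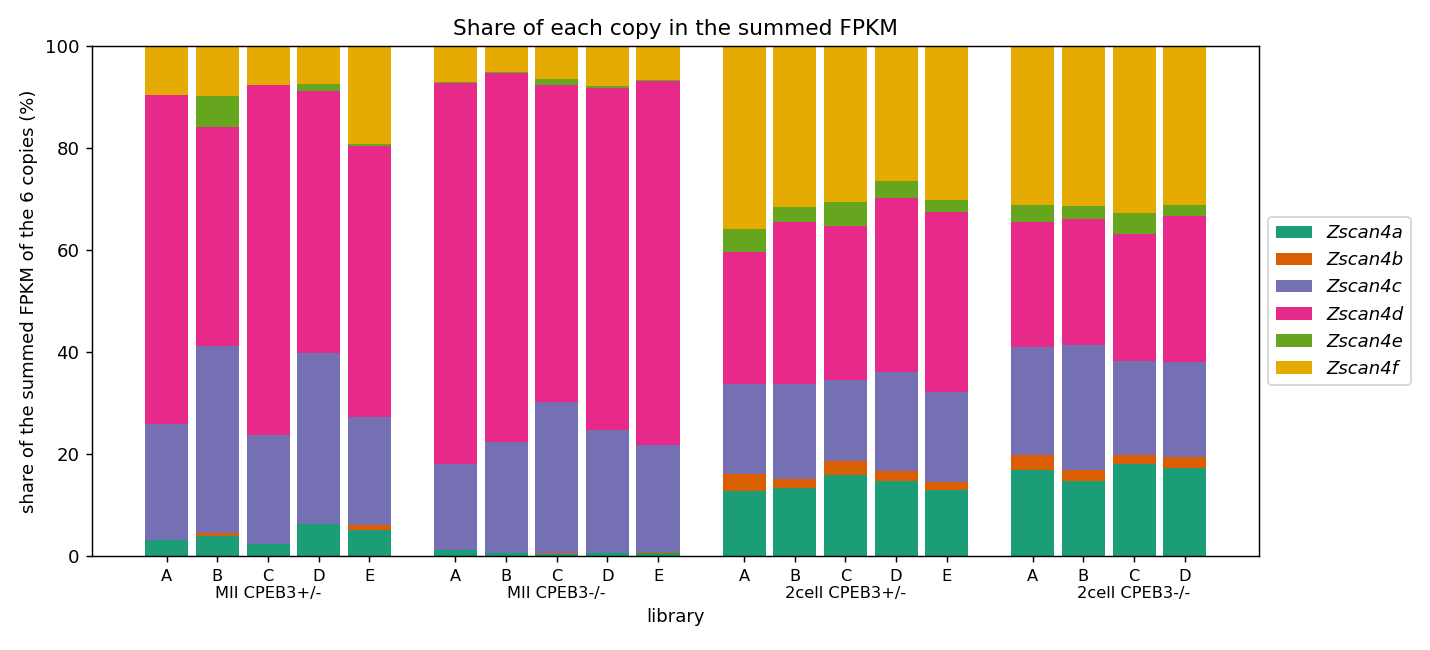
Share of each copy (%) in the summed FPKM of the 6 Zscan4 copies, 1 bar per library, by stage and labelled genotype. Zscan4d is the largest part of every MII library, at 43.0% to 74.6%, and in 2cell libraries Zscan4a, Zscan4c, Zscan4d and Zscan4f each hold 12.7% or more.

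Sums over copies that can trade reads are given as values, with no test. *Zscan4c*, *Zscan4f* and *Zscan4-ps2* together were at 0.852 ± 0.218 and 4.46 ± 1.96 FPKM (SD, n = 5 each) in CPEB3+/- and CPEB3-/- MII oocytes, with no overlap. In 2cell embryos they were at 204 ± 124 (n = 5) and 128 ± 40.4 FPKM (n = 4), with overlap. *Zscan4b* and *Zscan4e* together were at 21.5 ± 16.8 and 10.8 ± 3.20 FPKM in 2cell embryos, also with overlap. The sum of all 6 copies was 651, 368, 195, 251 and 261 FPKM in CPEB3+/- 2cell libraries A to E and 204, 263, 196 and 136 FPKM in CPEB3-/- libraries A to D. Library A held the highest control value by far, and the ratio of the means of 0.579 moved to 0.744 without it. In the same library A, *Zscan4-ps1* was also highest, at 22.6 against 6.96 to 9.66 FPKM in the other controls, whereas the 20 other genes of the 2cell stage listed beside *Zscan4* summed to 1089.7 FPKM, next to 1063 FPKM in control D. Its estimated depth of 18.4 M fragments lay within the range of its group.

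*Zscan4-ps1* (11065139 to 11069691, minus strand), which lies between *Zscan4c* and *Zscan4d*, did not share the rise. It was the highest *Zscan4* locus of MII oocytes in both genotypes by mean FPKM, at 8.87 ± 0.864 (n = 5) in CPEB3+/- and 14.8 ± 3.32 FPKM (n = 5) in CPEB3-/-. The lowest library labelled CPEB3-/-, A with 9.71 FPKM, lay just above the highest control at 9.68 FPKM. Its log2 difference of 0.58 (standard error 0.190, adjusted p = 0.0513, limma) was not called. In 2cell embryos *Zscan4-ps1* was at 11.2 ± 6.46 (n = 5) and 6.59 ± 3.05 FPKM (n = 4). Between the stages it differed by 0.06 on the log2 scale in CPEB3+/- (adjusted p = 0.862) and fell by 1.37 in CPEB3-/- (adjusted p = 0.00114, limma). Of its 150-base windows, 87.4% occur in no other annotated transcript. *Zscan4-ps2* and *Zscan4-ps3* followed the members in the stage comparison, at 0.0775 and 0.0300 FPKM in CPEB3+/- MII oocytes and 31.3 and 15.7 FPKM in CPEB3+/- 2cell embryos, and neither was called between genotypes in 2cell embryos (adjusted p = 0.498 and 0.854, limma).

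Between genotypes, no gene tested around the copies was called in the direction of the copies. Of 34 other rows within 500 kb of the members, 9 were tested in MII oocytes, where 0 were called higher and 2 lower (5 at an unadjusted p under 0.05, among them *Zscan4-ps1*, which leaned in the direction of the copies), beside 5.15% and 7.63% of all genes tested. *Nlrp4b*, a member of the NLRP family of oocyte genes, fell from 5.93 ± 1.34 to 3.27 ± 0.956 FPKM (log2 difference -0.98, standard error 0.258, adjusted p = 0.0242, limma), and *Gm7789* from 2.86 ± 0.156 to 2.05 ± 0.352 FPKM (-0.59, standard error 0.120, adjusted p = 0.00865). In 2cell embryos 18 were tested and 0 called by limma, with 2 at an unadjusted p under 0.05. The other genes with *Zscan* symbols, 15 with the *Zscan4* pseudogenes, gave 0 calls among 7 tested in MII oocytes and among 10 tested in 2cell embryos, with 2 and 2 at an unadjusted p under 0.05 by limma. Of these, *Zscan5b* passed the adjusted p in MII oocytes but not the 1.5-fold threshold (-0.44, adjusted p = 0.0385).

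Known regulators of the 2cell programme were listed as activators and repressors. Of 5 activators in the table, 3 were tested in MII oocytes and 0 called (0 at an unadjusted p under 0.05). *Duxf3*, the mouse *Dux* gene that switches on the 2cell programme, failed the filter there and was not tested: it was listed at 0 to 0.0177 FPKM in CPEB3+/- and at 0.0188 to 0.283 FPKM in CPEB3-/- oocytes. Such low values can rest on few fragments, which were not estimated for *Duxf3*. Among all genes tested, 8.71% had groups that did not overlap with CPEB3-/- above. In 2cell embryos *Duxf3* was at 0.263 and 0.595 FPKM (adjusted p = 0.220, limma). In 2cell embryos 1 of the 5 was called higher and 1 lower, where 7.78% and 10.5% of all genes tested were. *Dppa4*, which with *Dppa2* acts upstream of *Dux*, fell from 8.58 ± 2.30 to 4.69 ± 1.10 FPKM (log2 difference -0.93, standard error 0.220, adjusted p = 0.0170), while *Tbx3*, a T-box factor, rose from 0.840 ± 0.252 to 1.62 ± 0.227 FPKM (0.81, standard error 0.188, adjusted p = 0.0158). Of the repressors, 0 of 12 tested were called in MII oocytes (4 at an unadjusted p under 0.05), although *Kdm1a* passed the adjusted p with a change under 1.5-fold (0.45, adjusted p = 0.0101, limma). In 2cell embryos 1 of 14 was called higher, near the share over all genes tested, and 3 lower, while *Rif1* passed the adjusted p alone (-0.55, adjusted p = 0.00946, limma). *Uhrf1*, which recruits DNA methyltransferase to replicating DNA, rose from 0.811 ± 0.280 to 2.41 ± 0.675 FPKM, and *L1td1*, *Rnf2* (the catalytic subunit of Polycomb complex PRC1) and *Zmym2* fell by 1.25, 0.83 and 0.68 on the log2 scale (adjusted p from 0.00348 to 0.0273, limma).

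Among 16 genes of telomere maintenance, the process ZSCAN4 is known for, 0 of 13 tested were called in MII oocytes (3 at an unadjusted p under 0.05). In 2cell embryos 1 of 13 was called higher and 2 lower, near the 7.78% and 10.5% of all genes tested, so the counts set the list apart in neither direction. *Terf1*, the shelterin protein TRF1 that binds telomere repeats, fell from 0.936 ± 0.180 to 0.414 ± 0.125 FPKM (log2 difference -1.10, standard error 0.194, adjusted p = 0.00573). *Atrx*, a chromatin remodeler that deposits histone H3.3 at telomeres, fell from 2.44 ± 0.178 to 1.47 ± 0.157 FPKM (-0.78, adjusted p = 0.00561). In MII oocytes *Atrx* was at 3.16 ± 0.192 and 2.31 ± 0.255 FPKM and passed the adjusted p, missing a call only on the 1.5-fold threshold (-0.56, adjusted p = 0.0108, limma). At the 2cell stage *Rtel1*, a helicase that unwinds telomere loops, rose from 0.133 ± 0.0355 to 0.266 ± 0.0575 FPKM (0.59, adjusted p = 0.0466, limma), and *Tinf2*, a shelterin gene, passed the adjusted p alone (0.44, adjusted p = 0.0157, limma). The median log2 difference of the 13 was 0.16, beside -0.04 over all genes tested.

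The 20 genes of the 2cell stage that are often seen with *Zscan4* were described as a list as well. In MII oocytes 11 were tested, and only *Usp17le*, a deubiquitinase gene, was called higher, from 0.0327 ± 0.0303 to 0.180 ± 0.0502 FPKM (log2 difference 1.03, standard error 0.178, adjusted p = 0.00400, limma), beside 5.15% of all genes tested. It passed the filter only through its CPEB3-/- values (0.0774 FPKM at most in CPEB3+/-, 0.107 FPKM at least in CPEB3-/-), which favours a call. At an unadjusted p under 0.05 there were 3 of the 11, all leaning higher. Besides *Usp17le* these were *Usp17lc* (1.20, adjusted p = 0.0526, limma) and *Usp17lb* (0.78, adjusted p = 0.131, limma), neither called. The median of the 11 was 0.06, beside -0.01 over all genes tested and 2.22 over the 3 copies tested. In 2cell embryos 1 of 20 was called higher and 3 lower (9 at an unadjusted p under 0.05), beside 7.78% and 10.5% of all genes tested. *Gm4340* rose from 41.7 ± 35.3 to 136 ± 20.1 FPKM (2.05, standard error 0.549, adjusted p = 0.0279), whereas *Gm8300* and *Tdpoz4*, among those called lower, fell by 0.79 and 0.97 on the log2 scale (adjusted p = 0.0412 and 0.0469, limma). Like the *Zscan4* copies, *Gm4340*, *Gm8300* and *Tdpoz4* belong to families of near-identical genes that can share reads.

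The genes whose pattern was most like that of *Zscan4d* were found by Pearson's r on the log2(FPKM + 0.1) scale over the 19 libraries, a measure dominated here by the step between the stages. It also takes in the genotype difference of *Zscan4d* in MII oocytes. Genes with such a difference are therefore favoured, and their MII means are in part what they were picked by. Outside the family the 5 nearest were *Gm5039* (r = 0.971), *Meioc* (0.964), *Mt1* (0.960), *Gm9048* (0.959) and *Ftl1-ps1* (0.958), while *Zscan4c* had 0.980, *Zscan4f* 0.953 and *Zscan4a* 0.888. *Mt1*, which encodes the metal-binding protein metallothionein, was at 1.20 ± 0.337 and 11.1 ± 2.00 FPKM in CPEB3+/- and CPEB3-/- MII oocytes, and at 695 ± 149.9 and 713 ± 98.2 FPKM in 2cell embryos. *Gm5039* was at 0.702 ± 0.242 and 3.23 ± 0.572 FPKM in oocytes and at 93.5 ± 24.9 and 66.5 ± 19.7 FPKM in embryos. *Meioc*, a meiosis gene, was at 0.0645 ± 0.0268 and 0.415 ± 0.130 FPKM in oocytes and at 2.86 ± 0.709 and 2.70 ± 0.252 FPKM in embryos. The libraries shared by these correlations make them a description, with no test.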

How the data were processed

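RNA of 19 libraries was measured by SMART-seq with paired reads of 150 bases. Per the submitters' notes and the methods, the authors trimmed reads with Trim Galore 0.4.1, mapped them to GRCm38 with HISAT2 2.0.5 and computed the deposited FPKM in SeqMonk. The table is named as raw counts, but its values were tested as FPKM: 0.00203% are whole numbers above 0. Depth was estimated from the steps between low values and was 17.2 to 23.6 M fragments (median 19.7 M), of which 3 were taken as a floor for counting error only. Of the value columns, 0 were left unused. The methods name quadruplicates and HiSeq X, the labels 5 libraries in 3 of the groups and NovaSeq, and every labelled library was used.

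Scaling factors came from trimmed means of log ratios (30% of ratios and 5% of levels trimmed). Genes reaching 0.1 FPKM in 5 libraries (MII) or 4 (2cell, and all 19 together) were fitted with limma 3.58.1 (R 4.3.3, variance trend) on log2(FPKM + 0.1), with Benjamini-Hochberg adjustment over all genes tested. Genes with an adjusted p under 0.05 and over 1.5-fold were called, the interaction at an adjusted p under 0.05 alone. For each copy the FPKM of a stage were compared by exact permutation (two-sided). Transcripts were aligned with MAFFT 7.526. Pairs of libraries correlated at no more than 0.983, so none was counted as a duplicate. Named are the 6 copies, the 5 genes most correlated with *Zscan4d*, and up to 4 called genes per list and stage, by mean FPKM. *Zscan4-ps1* to *Zscan4-ps3*, *Duxf3*, *Cpeb3*, *Usp17lb*, *Usp17lc*, the cell markers and genes that passed the adjusted p but not 1.5-fold were named outside this rule, after their values were seen. Of the genes the rule names, 1 is not reported here. The members, lists and tests were chosen with earlier results of these data known. Alternatives were other scalings (as deposited, sum, quantile), pseudocounts of 1 and 0.01, no filter or 1 FPKM, removal of the GC trend, a replicate block and leaving out each library.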

Additional observations from a re-analysis of the deposited data

Results flagged for a closer look

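Of 28 groups of values (6 copies and their sum in 4 groups), 4 held a library that stood apart from the rest of its group by Dixon's test, which chance flags in about 1 of 20. In CPEB3+/- 2cell embryos library A was apart for *Zscan4b* at 22.3 FPKM and for *Zscan4e* at 28.9 FPKM, the near-identical pair. In CPEB3+/- MII oocytes *Zscan4e* was apart in library B at 0.123 FPKM, about 4.46 estimated fragments, and *Zscan4f* in library E at 0.488 FPKM.

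The difference between genotypes itself differed between MII oocytes and 2cell embryos for 3 copies (2cell difference minus MII difference, limma interaction): -2.84 for *Zscan4c* (adjusted p = 0.00248), -3.97 for *Zscan4d* (adjusted p = 2.18e-05) and -2.41 for *Zscan4f* (adjusted p = 0.00737). All 5 MII libraries labelled CPEB3-/- lay above all controls for each of them, while in 2cell embryos 1, 3 and 1 of the 4 libraries labelled CPEB3-/- lay below all controls.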

How the results depend on the processing

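In MII oocytes *Zscan4c* and *Zscan4d* were called higher in every alternative run, and *Zscan4f* in every one but the filter of 1 FPKM, where it was not tested. *Zscan4c* passed that filter only through its CPEB3-/- values, so its call there is no support. The number of copies called lower in 2cell embryos, 1 in the fit described, was 0 scaled to the sum of FPKM, 0 after quantile normalization, 0 with no filter and 0 after removal of the GC trend (adjusted p of *Zscan4d* from 0.0675 to 0.103, limma), and 2 in the fit of all 19 libraries. Without each library in turn it ranged from 0 to 1, and it was 0 without CPEB3+/- B, D or E and without CPEB3-/- A, C or D. With the letters as a replicate block it was 0 (*Zscan4d* -1.09, adjusted p = 0.0791) and with the replicate block and GC removal 0 (adjusted p = 0.126, limma), while calls over all genes went from 2573 to 401. The letters pair no samples by the labels: deviations of same-letter libraries correlated at -0.18 to 0.12 in MII and -0.07 to 0.04 in 2cell libraries, and 1 of 5 and 1 of 4 letters correlated best with its own. The block also took MII calls over all genes from 1343 to 798 and changed no other call of a copy. The ratio of the summed copies was 6.19 to 7.62 in MII and 0.517 to 0.744 in 2cell embryos without each library. Scaling to the sum of FPKM took the share of calls that were higher from 40.3% to 69.9% in MII oocytes and from 42.5% to 80.9% in 2cell embryos. FPKM as deposited gave 57.1% and 52.3%. The sum scaling moved the median log2 difference of all genes from -0.01 to 0.15 in MII oocytes, and between the stages from 0.27 to -0.17 in CPEB3+/- and from 0.22 to -0.07 in CPEB3-/-, where the share of higher calls went from 59.8% to 45.6% and from 58.9% to 48.8%. Quantile normalization gave medians of -0.19 and -0.20 there, with 44.6% and 44.3% higher. Calls over all genes in 2cell embryos were 1207 with a pseudocount of 1, 1614 with the filter of 1 FPKM and 155 with the GC trend removed in the replicate block. In MII oocytes they were 489 with a pseudocount of 1 and 768 with the filter of 1 FPKM. In the interaction they were 857 with a pseudocount of 0.01, 926 with the GC trend removed in the block, 887 in the block and 880 with the filter of 1 FPKM. Between the stages, a pseudocount of 1 took the genes called higher from 6255 to 3128 in CPEB3+/- and from 6032 to 2990 in CPEB3-/-. The cause of these changes was not tested. Depth limits *Zscan4a*, *Zscan4b* and *Zscan4e* in MII oocytes, at 6.04 estimated fragments or fewer.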
